A study of Mus musculus with 8 samples.

Results

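Apoe encodes apolipoprotein E, and this account follows its RNA in mesenchymal stem cells (MSC) of 2 mouse strains. MSC are cells of the marrow stroma that grow attached to plastic and can turn into bone, cartilage or fat cells. Expression was measured on single-colour Illumina bead arrays in 8 cultures, 4 from NOD mice with normal blood glucose and 4 from BALB/c mice of matched age, with BALB/c as the reference. NOD mice develop autoimmune diabetes and BALB/c mice do not. According to the series design, each isolation pooled marrow from at least 5 mice and the cells were used at passage 4. The sample titles instead read as single mice, so p-values here measure the spread between these cultures, which may be technical. All 8 cultures were grown in the same serum-containing medium. The protocols also describe stimulation with interleukin-1 beta, yet none of the arrays carries such a label, so all count as untreated here. Neither labels nor files state age, sex, BeadChip or scan order, so a batch that follows the strains and the strain itself cannot be told apart.

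Apoe was found by its gene ID, 11816, in the identifiers of the deposited probes. It was read by 1 probe of the 46628 in the table, and it is 1 of 8107 genes that could be named. Its probe was detected on every array, with detection p-values of 0.00187, 0.00811, 0.0137 and 0 in BALB/c cultures 1 to 4 and 0 throughout NOD. The detection p-value is the share of negative control beads on the array that were brighter than the probe. Apoe was chosen by its measured levels on these arrays, so its own values are a description with no test. The files do not hold the bases of the probe, and whether the strains differ in sequence there was not tested.

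Apolipoprotein E is a secreted protein that binds lipid and helps carry cholesterol between cells. Cells take up particles that hold it through a family of lipoprotein receptors and through heparan sulphate proteoglycans. Liver makes most of the plasma protein, and macrophages, adipocytes, astrocytes and many stromal cells also make it. In macrophages and adipocytes the gene is a known target of the liver X receptors (LXR), nuclear receptors that sense oxidised sterols. In mouse bone, apolipoprotein E has been linked to the lipoprotein uptake and differentiation of osteoblasts.

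The reference promoter is shown for orientation, because the arrays read the RNA and not its control. RefSeq places Apoe on chromosome 7, and its promoter table lists 3 windows for the gene. The most upstream covers chr7:19699139-19699438 on the minus strand of GRCm38.p6, with 250 bases before and 50 after the start site. It is printed 5′ to 3′, from the C57BL/6J assembly and not from either strain studied, with matches to the motifs searched in capitals.
Apoe: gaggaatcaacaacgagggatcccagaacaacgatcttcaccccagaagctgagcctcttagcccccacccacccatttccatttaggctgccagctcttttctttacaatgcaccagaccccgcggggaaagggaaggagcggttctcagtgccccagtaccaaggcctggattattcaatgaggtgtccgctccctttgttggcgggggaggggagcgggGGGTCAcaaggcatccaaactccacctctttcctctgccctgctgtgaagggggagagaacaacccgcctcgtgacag
The capitals mark the single match, GGGTCA, a variant of the half-site that nuclear receptors bind, which begins at base 223 of the window. It was found in 13.7% of 32851 promoter windows, counting both strands. The canonical half-site AGGTCA (16.3% of windows), the TATA motif TATAA (24.9%), the GC box GGGCGG (35.7%) and the CCAAT box (37.4%) had no match on either strand. The LXR element, searched as 2 AGGTCA half-sites with any 4 bases between them, had none either and occurs in 0.0152% of windows. These are matches of letters in a short window, and they say nothing of which factors act on the gene.

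The Apoe signal was high in NOD MSC and low but present in BALB/c MSC. In the deposited raw signal, the BALB/c cultures (1 to 4 in turn) gave intensities of 212, 181, 114 and 405. The NOD cultures gave 1016, 2221, 1979 and 1587. Every NOD culture lay above every BALB/c culture, and the dimmest NOD culture was 2.51-fold brighter than the brightest BALB/c culture. The median raw signal over all probes was 58.2, 74.9, 61.0 and 56.5 in the BALB/c arrays. It was 75.8, 74.8, 78.6 and 68.7 in the NOD arrays. The medians of BALB/c cultures 1, 3 and 4 thus lay below every NOD median, and that of culture 2 lay among them. Whether overall brightness bears on the raw Apoe difference was not tested. In the authors' normalized intensities, which put all arrays on like scales, Apoe was 309.07, 189.53, 145.69 and 660.22 in BALB/c and 1088.17, 2220.78, 1906.6 and 1693.34 in NOD. The strains stayed apart there by 1.65-fold between their nearest cultures.

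After background correction and quantile normalization the Apoe level was 7.83, 6.94, 6.29 and 9.04 in BALB/c cultures 1 to 4 on the log2 scale. The NOD cultures stood at 9.84, 10.93, 10.51 and 10.42. The strain means were 7.53 ± 1.19 in BALB/c and 10.42 ± 0.45 in NOD (SD, n = 4 each), a difference of 2.90 ± 0.55 (SE of the fit), or 7.45-fold. The fold was 6.10 in the authors' normalized intensities and 7.96 in the raw signal. It was 4.69 where the detection p-values were used exactly as deposited, without setting the 36 values below their smallest step to 0 before the background was inferred. By the size of this difference Apoe stood at place 31 among 4225 tested genes with a name, and at place 127 among 17754 tested probes.

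**Figure D1:**
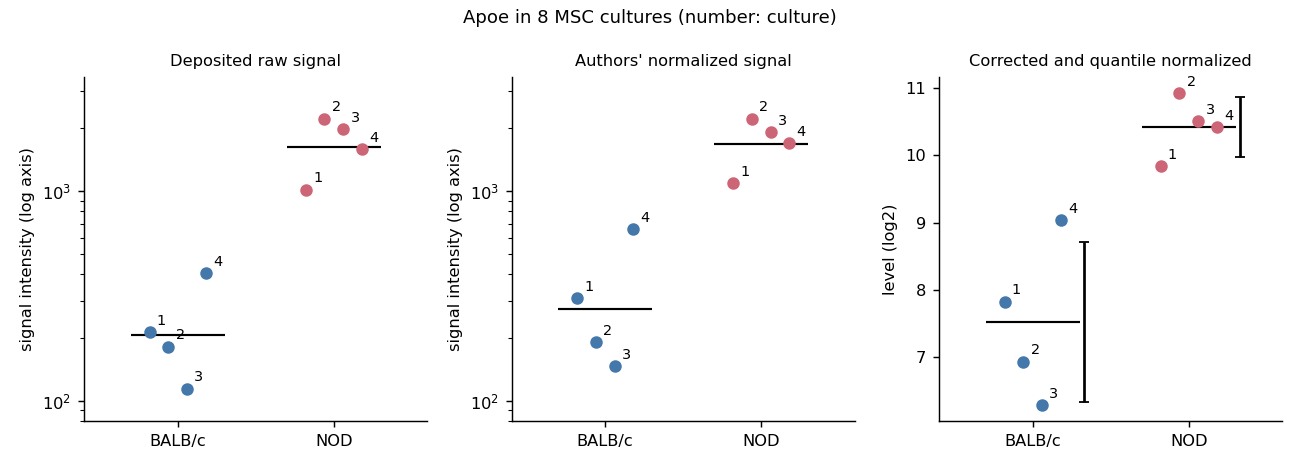
Apoe in each of the 8 cultures as raw signal and authors' normalized signal intensity (log axes, horizontal lines at the geometric means) and as log2 level after background correction and quantile normalization (lines at the means, bars of 1 SD, n = 4). The 4 NOD cultures lie between 9.84 and 10.93 on the last scale, above all BALB/c cultures, which spread from 6.29 to 9.04.

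Apoe varied more among BALB/c cultures than among NOD cultures. The BALB/c cultures ran in the order 4, 1, 2, 3 from high to low, over a 6.71-fold range of normalized levels. The NOD cultures ran in the order 2, 3, 4, 1, over a 2.14-fold range. The BALB/c SD of 1.19 was larger than that of 90.6% of the tested probes, whose median was 0.48. The NOD SD of 0.45 was larger than that of 74.2%, with a median of 0.29. BALB/c culture 4 therefore sat nearer to NOD culture 1, at a distance of 0.80, than to any other BALB/c culture.

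The size of the strain difference in Apoe depended on which BALB/c cultures were kept. Over all tested probes, BALB/c cultures 1 and 4 correlated at 0.983, and every other pair of BALB/c cultures at 0.842 to 0.90. NOD pairs reached 0.927 to 0.985, and pairs across the strains 0.812 to 0.906. BALB/c culture 2 correlated more closely with NOD culture 1 (0.901) than with any other BALB/c culture (at most 0.872). BALB/c culture 3 was narrowly closer to NOD culture 2 (0.906) than to any other BALB/c culture (at most 0.90). BALB/c cultures 1 and 4 were each closest to the other. The Apoe difference rose to 10.4-fold without BALB/c culture 4, and it was 5.63-fold without BALB/c culture 3. Without cultures 2 and 3 the fold was 3.99, and without cultures 1 and 4 it was 13.6. Weighting the arrays by how closely each fitted the mean of its strain gave 4.11. Leaving out a single NOD culture gave folds of 6.65 to 8.61. In each of these fits the lowest NOD level of Apoe stayed above the highest BALB/c level. Leaving out or weighting cultures barely moves the remaining levels, so that outcome was set by the full data and is no separate check.

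Cells other than MSC can also supply Apoe RNA, and macrophages are common in marrow cultures. Of 27 macrophage markers listed, 12 had a named probe and 4 passed the filter, which kept a probe if 4 or more of the 8 arrays detected it. None of the 4 differed between the strains in limma's moderated test at an adjusted p under 0.05, and 1 had an unadjusted p under 0.05. The lysosomal macrophage protein Cd68 was 7.93, 6.89, 6.02 and 9.09 over the BALB/c cultures and was detected on no NOD array (5.06 to 5.66; limma adjusted p = 0.0615). The order of the BALB/c cultures was the same for Cd68 as for Apoe, while the NOD cultures, with the highest Apoe, had Cd68 below the detection limit. The complement gene C1qb was 5.89, 5.61, 5.04 and 8.52 over the same cultures and was detected in cultures 1 and 4 of that strain and in no NOD culture.

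Other macrophage genes split the cultures in different ways. Csf1r, the receptor for colony-stimulating factor 1, was detected in BALB/c culture 4 alone, at 6.66, and so were the Fc receptor Fcgr3 (6.80) and the complement gene C1qa (7.59). That culture also had the highest Apoe level of its strain. The lysozyme gene Lyz2 was 7.36, 11.42, 5.20 and 9.85 in BALB/c and 5.57, 4.92, 8.08 and 6.66 in NOD, so it was highest in BALB/c culture 2, where Apoe was only 6.94. Mertk, a receptor for the uptake of dying cells, was detected on all 8 arrays, at 9.44, 7.90, 9.43 and 8.97 in BALB/c and 9.68, 9.57, 7.95 and 9.27 in NOD, with overlapping groups (difference 0.18 ± 0.47 SE, limma adjusted p = 0.838). The leukocyte gene Ptprc (CD45), the integrin Itgam and the scavenger receptor Msr1 were detected on no array. Over the 12 markers with a probe, 3 to 8 were detected per BALB/c culture and 2 or 3 per NOD culture. Gpnmb, which stromal cells also make, was bright in every culture and read 0.46 ± 0.54 SE (limma adjusted p = 0.630). Leaving Gpnmb out, the summed level of the other 11 was 865 to 3222 in BALB/c and 663 to 1010 in NOD. That sum rests largely on Lyz2 and Mertk, so it says little of the 11 as a set. Of the 4 tested markers, by their brightest probes and with all cultures kept, 2 had negative differences (Cd68 and Lyz2) and 2 positive ones (Gpnmb and Mertk). None passed the test. Whether macrophages supplied part of the BALB/c signal was not tested. Fewer cells of a type and less RNA per cell cannot be told apart in such bulk samples.

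**Figure D2:**
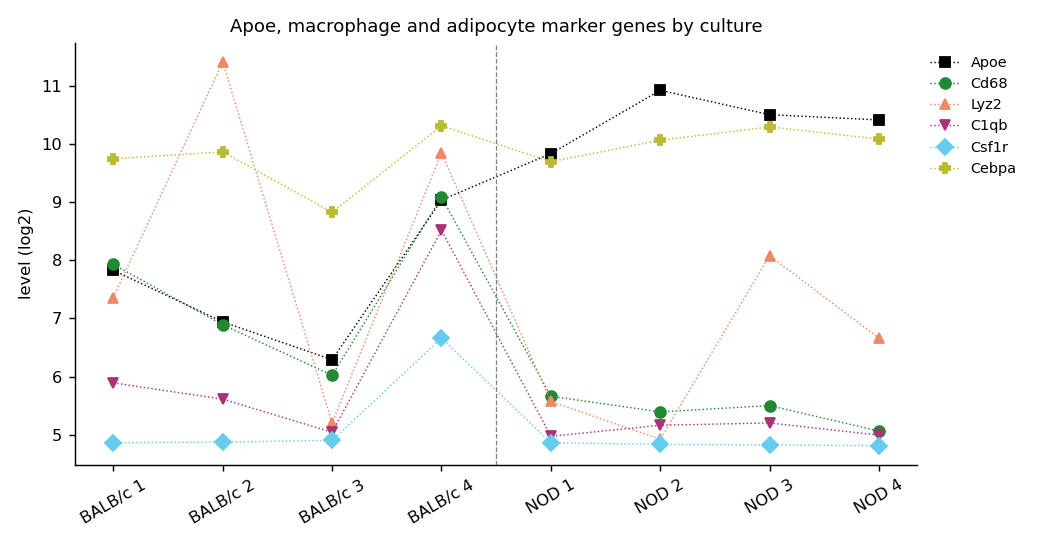
Log2 level of Apoe, of the macrophage genes Cd68, Lyz2, C1qb and Csf1r and of the adipocyte gene Cebpa in each culture. Dotted lines join the values of a gene and carry no order. Within BALB/c the peaks of Apoe, Cd68, C1qb and Csf1r fall in culture 4, and in NOD Apoe is high while Cd68, C1qb and Csf1r lie at 5.66 or below.

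Markers of fat cells gave little to set beside Apoe. Of 12 listed adipocyte genes, 2 had a named probe. Fabp4, the fatty acid binding protein of adipocytes, was detected on no array. Cebpa, a transcription factor of fat cell formation, was 9.75, 9.87, 8.83 and 10.32 in BALB/c and 9.70, 10.07, 10.30 and 10.09 in NOD, with overlapping groups (difference 0.35 ± 0.32 SE, limma adjusted p = 0.529). None of the 5 other leukocyte markers with a probe was detected in NOD, and 1, Lcp1, was detected in BALB/c culture 4.

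Few of the defining MSC surface markers could be read, since 4 of 12 had a named probe. Vcam1, an adhesion molecule of marrow stroma, was clearly detected in all cultures and 2.20-fold higher in NOD (12.34 ± 0.25 against 11.21 ± 0.17, limma adjusted p = 0.00944). In 4 of 22 other fits Vcam1 was not called. Alcam (1.28, adjusted p = 0.173, or 0.0424 without BALB/c culture 2) and Cd44 (0.27, adjusted p = 0.550) did not pass limma's test. The chemokine gene Cxcl12 was detected on no array. Of 6 tested osteoblast markers 4 were called higher in NOD, beside 4.14% of all tested genes. They were Bglap, Bglap2, Alpl and Col1a2, and of these Alpl and Col1a2 were not called in 11 and 10 of 22 other fits. Spp1 (-0.18, limma adjusted p = 0.508) and Col1a1 (0.42, adjusted p = 0.458) were not called. The alkaline phosphatase gene Alpl was 8.63, 7.11, 5.71 and 9.09 in BALB/c, beside 9.71, 9.99, 11.70 and 10.79 in NOD. Its BALB/c cultures stood in the same order as for Apoe, and its NOD cultures in another. Osteocalcin (Bglap) was detected in 2 BALB/c cultures and in all NOD cultures, at 9.55 to 13.27. Bglap2 is a near-identical copy, and a probe for one may also read the other. Of 3 endothelial markers with a named probe, Pecam1 and Emcn were detected on no array. The third, Eng, was detected in every culture, with overlapping groups (difference -0.65 ± 0.65 SE, limma adjusted p = 0.569).

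Over all tested probes 1511 of 17754 (8.51%) were called at an adjusted p under 0.05 in limma, 4.16% higher and 4.35% lower in NOD. The lipoprotein and sterol genes pooled from 5 lists were called at a rate near this background, but the lists differed. Across 5 lists of apolipoproteins, receptors, efflux and LXR genes, lipases and sterol synthesis genes, 40 genes other than Apoe were tested. Of these 2 were higher and 2 lower in NOD, or 10.0%, against 9.14% of all 4225 tested genes (4.14% higher and 4.99% lower). Their median difference was 0.13, beside -0.02 over all tested genes. By list, 27.3% of the 11 sterol synthesis and sensing genes were called, and 10% of the 10 receptors and adaptors. None of the 12 efflux and LXR genes, the 4 lipase and processing genes or the 3 apolipoproteins other than Apoe was called. These lists were drawn up with earlier results of these data known.

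Other apolipoproteins were dim or did not pass limma's test. Of 14 listed, 6 had a named probe and 3 were tested, with no call and 1 unadjusted p under 0.05. That was Apoa1, the main protein of high-density lipoprotein, at 8.39, 7.96, 7.73 and 8.23 in BALB/c and at 7.03, 7.76, 7.47 and 7.29 in NOD (difference -0.69 ± 0.23 SE, limma adjusted p = 0.104). Apoc2, the activator of lipoprotein lipase, lies in the same gene cluster as Apoe and had nearly equal means (0.15 ± 0.28 SE, adjusted p = 0.779). Apoa4, which is secreted mainly by the intestine, read -0.21 ± 0.23 SE (adjusted p = 0.601). Apoc3, Apoc4 and Apoa2 were detected on no array.

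Among the receptors that take up or sort lipoproteins, 1 of 10 tested genes was called. Sort1 encodes sortilin, a sorting receptor that binds apolipoprotein E among other ligands. Its level was 11.52, 10.45, 10.82 and 11.41 across the BALB/c cultures, whereas NOD gave 7.91, 8.19, 7.56 and 7.96. The strains were far apart, and Sort1 was 8.85-fold lower in NOD (difference -3.15 ± 0.28 SE, limma adjusted p = 0.000240). A second Sort1 probe was also lower (-1.22, adjusted p = 0.0121), and the call held in all 23 other fits. Sorl1, a relative of Sort1 that also binds apolipoprotein E, was detected on 3 arrays only and so was not tested. It is named here after its values were seen. Sorl1 was 9.43, 8.09, 4.97 and 9.72 in BALB/c and 4.96 to 5.24 in NOD, and with no detection filter its difference of -2.91 ± 1.00 SE had an adjusted p of 0.227 in limma.

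The uptake receptors described here did not pass limma's test in the reported fit. Vldlr, the very-low-density lipoprotein receptor, was 11.57, 10.38, 10.64 and 12.55 in BALB/c and 12.16, 12.45, 11.86 and 12.13 in NOD. Its groups overlapped, because BALB/c culture 4 was the highest of all (difference 0.87 ± 0.45 SE, adjusted p = 0.263). Lrp1, the large receptor that takes up remnant particles, read -0.34 ± 0.28 SE (adjusted p = 0.477). Scarb1, the high-density lipoprotein receptor, read 0.55 ± 0.38 SE (adjusted p = 0.409). Vldlr was called without BALB/c cultures 1 and 4 (1.62, adjusted p = 0.0256). Scarb1 was called without cultures 2 and 3 (1.23, adjusted p = 0.00685) and with array weights (1.08, adjusted p = 0.00246). Lrp1 was called with array weights (-0.58, adjusted p = 0.0207). Vldlr and Lrp1 were not called in 21 of 22 other fits, and Scarb1 in 20. The heparan sulphate proteoglycans Sdc1 and Hspg2 read 0.80 (adjusted p = 0.163) and -0.31 (adjusted p = 0.526). A second Sdc1 probe read 1.78 (limma adjusted p = 0.0514). Cd36 and Olr1, which bind oxidised lipoproteins, were detected on no array. Lrp8 had no named probe.

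None of 12 tested efflux and LXR genes was called by limma, and 2 had an unadjusted p under 0.05. Nr1h3, which encodes LXR alpha, was 9.98, 8.94, 6.61 and 9.85 in BALB/c and 7.45, 7.85, 7.76 and 7.68 in NOD. The BALB/c cultures spread on both sides of NOD (difference -1.16 ± 0.67 SE, adjusted p = 0.316). Without BALB/c culture 3 the Nr1h3 difference was -1.91, with an adjusted p of 0.00519. Abcg1, a cholesterol transporter and known LXR target, was 8.28, 9.76, 5.68 and 8.39 in BALB/c and 8.81 to 9.05 in NOD (0.92 ± 0.72 SE, adjusted p = 0.463). In BALB/c culture 3, where Apoe was lowest, both Nr1h3 and Abcg1 were also at their lowest. Rxra, the partner receptor of LXR, was 5.40 to 6.44 in BALB/c and 6.69 to 6.97 in NOD, with no overlap but an adjusted p of 0.0934, or 0.0398 without BALB/c culture 2. Of all tested genes, 8.69% lay higher in NOD with no overlap and 10.2% lower. Osbpl2, an oxysterol binding protein, read -0.71 ± 0.21 SE (adjusted p = 0.0712). Abca1 and Nr1h2 had no named probe.

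The lipases and the proteins that process lipoproteins had no call among 4 tested genes, nor an unadjusted p under 0.05. Lpl, lipoprotein lipase, was 11.40, 12.15, 9.01 and 12.11 in BALB/c and 10.16 to 10.88 in NOD, within the BALB/c range (-0.58 ± 0.64 SE, limma adjusted p = 0.609). Without BALB/c culture 3 the Lpl difference was -1.31, with an adjusted p of 0.0180. Angptl4, a secreted inhibitor of that enzyme, read -0.42 ± 0.34 SE (adjusted p = 0.485). Bmp1, a protease that matures lipoproteins and collagens, read 0.19 ± 0.47 SE (adjusted p = 0.830).

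Sterol synthesis and its sensors had 3 calls among 11 tested genes, 2 higher and 1 lower, and 9 of the 11 differences were positive, with a median of 0.88. Srebf2, the transcription factor that switches the pathway on, was 8.30, 8.55, 9.30 and 8.99 in BALB/c and 9.95, 10.36, 10.77 and 10.24 in NOD. The strains did not overlap (1.55 ± 0.28 SE, limma adjusted p = 0.0113), but its second probe was not called (0.75, adjusted p = 0.123), and its adjusted p was 0.0505 without NOD culture 4. Cyp51, a demethylase of the pathway, was 3.64-fold higher (1.86 ± 0.42 SE, adjusted p = 0.0281) but was not called in 10 of the 23 alternative fits. The synthesis genes Hmgcs1 (14.11) and Cyp51 (12.97) peaked in NOD culture 3, whereas Apoe peaked in NOD culture 2.

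**Figure D3:**
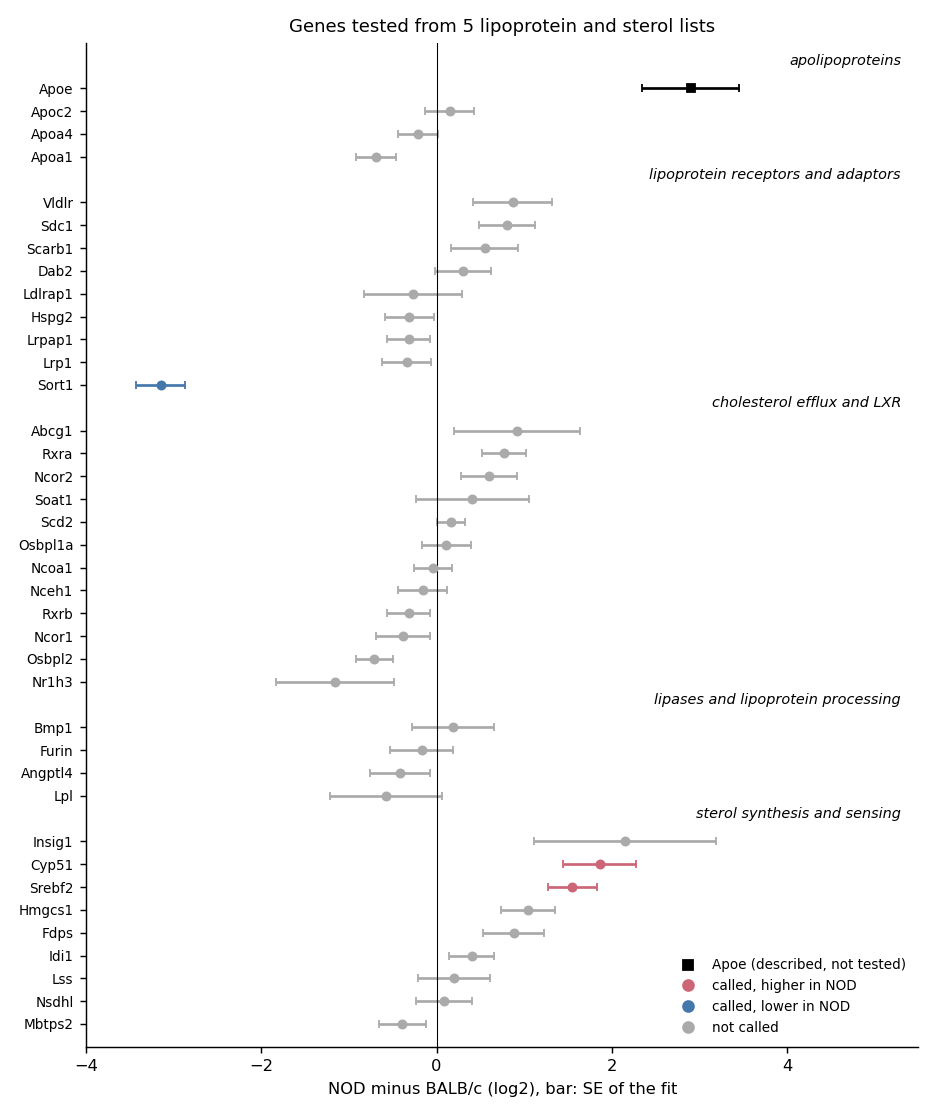
Difference between the strains (NOD minus BALB/c, log2) of genes tested from 5 lists, with bars of 1 SE of the fit. Apoe (black square) lies at 2.90. The called genes shown are Cyp51 and Srebf2, higher in NOD, and Sort1, lower, and the other genes shown were not called.

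No tested chromosomal neighbour of Apoe was higher in NOD by limma's test, adjusted or not. Of the 10 protein-coding genes on each side in the RefSeq order, 7 had a named probe and 4 were tested. Tomm40, the mitochondrial import gene next to Apoe, read -0.03 ± 0.21 SE (limma adjusted p = 0.938), and Apoc2, on the other side, 0.15. Bcl3, a regulator of NF-kappaB, read 0.29 ± 0.46 SE (adjusted p = 0.728). The adhesion gene Nectin2 was the one call, 3.26-fold lower in NOD (9.07 ± 0.44 against 7.36 ± 0.40, adjusted p = 0.00880), but its second probe read 0.25 (adjusted p = 0.471). The nearest neighbour on the other side, Apoc1, had no named probe.

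The genes whose levels followed Apoe most closely were ranked by Pearson's r over the 8 arrays, among 4224 other named genes. Since all genes share the same arrays and strains, r reflects both the strain difference and the differences between cultures, and it is given as a description. In all, 53 genes (1.25%) had r above 0.9 and 36 (0.852%) had r below -0.9. First was Ptprd, a receptor-type tyrosine phosphatase, with r = 0.993. Its level was 7.38, 6.52, 5.83 and 8.67 in BALB/c, against 10.53, 11.45, 10.81 and 10.91 in NOD. Ptprd thus had the same order of BALB/c cultures as Apoe and the same highest and lowest NOD cultures. After each strain's mean was subtracted Ptprd still ranked first, with r = 0.991.

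Next came Timp3, a matrix-bound inhibitor of metalloproteinases (r = 0.980), at 12.43 to 13.48 in BALB/c and 13.57 to 14.36 in NOD. The mitochondrial sarcosine dehydrogenase Sardh (r = 0.973) and the scaffold protein Iqgap1 (r = 0.972) followed. Then came 2310009B15Rik (r = 0.970), the nuclear envelope protein Syne3 (r = 0.969), the dynactin subunit Actr10 (r = 0.967), the TGF-beta binding matrix protein Ltbp2 (r = 0.961), the secretory cargo receptor Tmed10 (r = 0.957) and Tmem68 (r = 0.955). In all 10 the NOD cultures lay above the BALB/c cultures, beside 8.69% of all tested genes. The 10 were picked for following Apoe, which itself separates the strains, so this was largely set by the selection. The sizes of their differences varied widely. Ltbp2 was 11.17 ± 0.56 in BALB/c and 13.67 ± 0.14 in NOD, while Iqgap1 differed by only 0.41. Within strains, only Ptprd of these 10 stayed among the 10 closest, where the peroxiredoxin Prdx6 came second (r = 0.988). That measure rests mostly on the BALB/c cultures, which spread most.

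The genes that ran most against Apoe were Il7 (r = -0.982) and Il18 (r = -0.978), both cytokines, and Dmtn (r = -0.975), an actin-binding protein. 2310001H17Rik (r = -0.971) and Cfap410 (r = -0.970) completed the 5 lowest. Il7, the stromal cytokine that B cell precursors need, was 6.95, 8.41, 8.40 and 6.64 in BALB/c and was detected on no NOD array. Within BALB/c, Il7 was lower in cultures 1 and 4, where Apoe was higher. Il18 was 8.76, 9.10, 9.35 and 8.18 in BALB/c and 7.97, 7.01, 7.77 and 7.60 in NOD, the reverse order of Apoe in BALB/c. These genes were selected for following Apoe, which itself separates the strains, so no test of their strain difference is given.

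**Figure D4:**
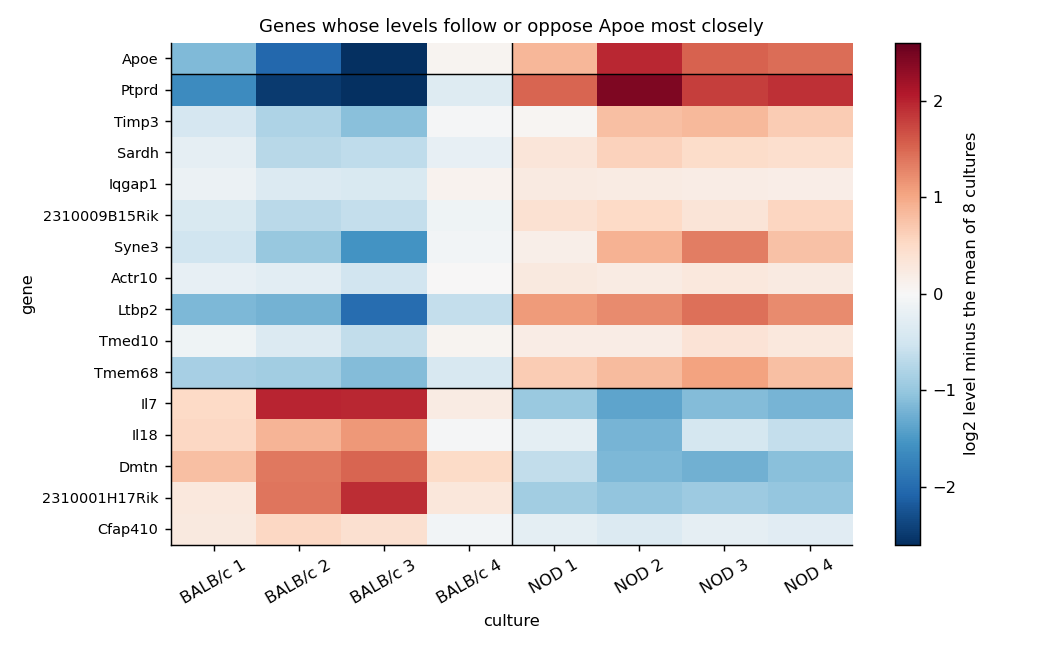
Levels of Apoe, of the 10 genes most like it and of the 5 most unlike it, by culture, as log2 level minus the gene's mean over the 8 cultures (colour scale capped at ±2.6). Ptprd repeats the order of Apoe in BALB/c with a larger difference (3.83 against 2.90), from its lowest level in BALB/c culture 3 to its highest in NOD culture 2, and the 5 lowest genes show the opposite colours.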

How the data were processed

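RNA of 8 cultures was hybridised as biotinylated cRNA to single-colour Illumina mouse arrays, per the labels' protocols. The deposited table holds mean bead signal intensities that were not normalized, per the file headers, with a detection p-value per probe and array. A second deposited table holds intensities that the authors normalized on a linear scale, with the method not stated. Genes were named from gene IDs inside the probe identifiers. Of 11857 identifiers of that form, 82.6% matched the RefSeq gene table (GRCm38.p6).

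Background was corrected by normexp with negative controls inferred from the detection p-values (36 values below the smallest step set to 0), with 16 as the offset, followed by quantile normalization between arrays and log2. Probes detected (p under 0.05) on at least 4 of 8 arrays were kept, 17754 in all. The strains were compared with limma 3.58.1 in R 4.3.3 (lmFit, eBayes, Benjamini-Hochberg over all tested probes, called at 0.05), and the procedure was tested on simulated data. The brightest probe stands for a gene, and levels of different probes were not compared, apart from the summed level of macrophage markers.

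The members and lists were chosen with earlier results of these data known. The text names each list's called genes, or the 3 largest differences where fewer were called. It also names a fixed set of receptors, transporters and LXR genes, each called neighbour, and the 10 highest and 5 lowest correlations with Apoe. Genes named beyond this rule, among them Sorl1 and Hmgcs1, were chosen after their values were seen. A few genes of these lists, which the counts include, are not reported here. The number of arrays limits the precision.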

Additional observations from a re-analysis of the deposited data

Results flagged for a closer look

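Among 92 groups of 4 values checked, 3 had a culture far from its fellows by a gap that took up most of the group's range. Chance alone would give about 1 such group in 20 if the groups were independent. These groups share the same 8 arrays, so the count of 3 among 92 cannot show whether chance produced them. All 3 concern BALB/c culture 3, which also had the lowest Apoe. The level of Gpnmb, a membrane glycoprotein of macrophages and osteoblasts, was 11.70 in that culture and 14.06 to 14.24 in the other BALB/c cultures. Col1a2, a chain of type I collagen, was 8.08 there and 9.27 to 9.38 in the others. Eng, the TGF-beta co-receptor endoglin, was 10.05 there and 7.13 to 7.37 in the others.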

How the results depend on the processing

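The Apoe groups did not overlap under any processing tried, and the difference was 2.49 to 3.38 with 1 culture left out. It was 2.00 without BALB/c cultures 2 and 3. The 1511 called probes became 775 when detection on all 8 arrays was required, 9182 with array weights, 6163 without BALB/c cultures 2 and 3, 441 without BALB/c cultures 1 and 4 (an alternative chosen after seeing the data) and 460 to 3421 with 1 culture left out. The 4 called lipoprotein and sterol genes became 8 with no normalization, 22 with array weights, 15 without BALB/c cultures 2 and 3, 2 without cultures 2 and 4 or 1 and 4, and 2 to 8 with 1 culture left out. No macrophage marker was called except 2 with array weights (Cd68 and Lyz2). Of the 10 genes most like Apoe, 5 stayed among the 10 under Spearman's rho, 1 within strains and 3 to 9 with 1 culture left out. Of Apoe's neighbours, 2 were called with no detection filter (Nectin2, lower, and Apoc4, higher by 0.28 with limma's adjusted p = 0.0311, detected on no array) and 0 without BALB/c cultures 1 and 4, and Nectin2 turned to 0.25 by its second probe. The cause of these changes was not tested.

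Same-numbered cultures of the 2 strains did not deviate together (correlations -0.33, -0.64, -0.05 and 0.08). Such correlations cannot show whether same-numbered cultures were processed together, and the reported fit did not pair them. A replicate block left 513 called probes and 0 called neighbours. Of the named genes called, 45.4% to 48.6% were higher in NOD under the other background settings, but 60.7% with median scaling (229 higher, 148 lower) and 80.5% with no normalization (420 and 102), against 175 higher and 211 lower in the reported fit. The median difference of all genes was 0.12 and 0.39 under those scalings, against -0.02 in the reported fit, and Apoe stood 2.93 above that median in both. Without BALB/c cultures 1 and 4 the split was 74 higher and 38 lower. Slide or scan as a block was not run, as none is given. Signals near background limit the low genes, Apoe in BALB/c cultures 2 and 3 included.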
